A study of Mus musculus with 12 samples.

Results

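The genes examined here encode the proteins of the cytosolic ribosome, the machine that translates mRNA in every cell. Members were the protein-coding genes whose mouse symbol is Rpl or Rps followed by a number, together with Rplp0, Rplp1, Rplp2 and Rpsa. There were 80 of them among 55536 annotated genes, 49 for the large (60S) and 31 for the small (40S) subunit. The rule reads names only. Kinase genes whose symbols start with Rps6k are not ribosomal and were left out. Oligodendrocyte precursor cells (OPCs), which divide and give rise to myelinating oligodendrocytes, were cultured from brains of P4-P6 mouse pups, with several brains pooled for each culture and the 4 replicates of a condition drawn from different litters. Cells were isolated either by sorting for a Sox10-GFP reporter or with CD140a magnetic beads, and the sources used here do not say which library came from which. All cultures grew in medium with PDGFaa and bFGF, and were left untreated (Ctr), given dexamethasone (Dexa, a synthetic glucocorticoid, 1 µM) or given interferon gamma (IFNg, 100 ng/ml), both treatments for 48 h. The labels also carry a mouse model name, EAE, beside the pup cultures, and give no strain. The study's paper describes its mice as Sox10:Cre animals crossed with an RCE:loxP (EGFP) reporter line of mixed genetic background. For the cultures it names pups of both sexes. The libraries were made from total RNA after depletion of ribosomal RNA, so they measure the mRNAs of ribosomal proteins and not the amount of ribosomes.

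A ribosome holds a single copy of nearly all its proteins, so their genes are expressed together at high levels in growing cells. Many of their mRNAs begin with a C followed by an uninterrupted run of pyrimidines, the 5′ terminal oligopyrimidine (5′ TOP) tract, through which mTORC1 and the binding protein Larp1 adjust their translation and stability. The same genes have left many processed copies in mammalian genomes, which arose by reverse transcription of the mRNA and can be nearly identical to it.

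RefSeq listed transcript starts for 60 of the 80 members on GRCm38.p6, some with several starts per gene. The stretch from 15 bases before to 15 bases after a start held a C followed by at least 4 pyrimidines, on the transcribed strand, in 41 of these 60 genes, or 68.3%, against 40.3% of the 27025 genes with a listed promoter. A longer tract of at least 8 letters was present in 25 members, or 41.7%, against 10.8% of all genes, and an uninterrupted run of at least 4 pyrimidines from the annotated first base in 28.3% against 8.12%. The windows of 6 members are shown because the results return to these genes. The longest tract that begins with C is in capitals, and the 16th letter is the annotated first base of the transcript. The windows lie at chr4:86857353-86857382 (minus strand) for Rps6, chr7:141447636-141447665 (plus) for Rplp2, chr14:24490663-24490692 (plus) for Rps24, chr9:66946071-66946100 (plus) for Rps27l, chr16:55966260-55966289 (plus) for Rpl24 and chr5:107900513-107900542 (plus) for Rpl5.
Rps6: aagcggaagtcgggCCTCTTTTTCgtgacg
Rplp2: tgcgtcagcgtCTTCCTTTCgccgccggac
Rps24: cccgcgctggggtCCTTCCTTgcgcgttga
Rps27l: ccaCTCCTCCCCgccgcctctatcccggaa
Rpl24: agaaagctgttgctaggaaacagactgggc
Rpl5: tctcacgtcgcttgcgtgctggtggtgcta
In the windows shown, Rps6, Rplp2 and Rps24 carry a tract over the start itself. Other listed starts of Rps24 (window at chr14:24490738-24490767) and Rps27l (chr9:66946398-66946427) held no such tract. The tract of Rps27l lies wholly before the annotated start, and the windows of Rpl24 and Rpl5 hold none of this form, which says only that these letters were not found at these annotated positions. In the 300 bases around the starts, searched on both strands, CCGGAAG (an ETS-type site) occurred in 41.7% of members and 9.93% of all genes, and GGGCGG in 60% and 38.2%. TATAA occurred in 28.3% and 28.0%. TTCNNNGAA, the form of a STAT site, occurred in 5% and 9.55%, GAAANNGAA, an interferon-response form, in 20% and 9.76%, and ACANNNTGT, the core of a glucocorticoid response element, in 1.67% and 7.9%.

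A second set of sequences bears directly on how the reads were counted. A near-identical copy was taken as any other annotated transcript that matched a member's coding sequence at 95% identity or more over at least 80% of its length. There were 555 such copy genes, of which 529 are annotated as pseudogenes, and 71 of the 80 members had at least 1. The windows below, each 30 bases of coding sequence, show a member and the copy that held many of its reads. Capitals mark the only base that differs within the window.
Rpl5: ctatctggatgcaggtcttgcccgaactac
Gm15500: ctatctggatgcaggtcttgcccgaactac
Rpl21: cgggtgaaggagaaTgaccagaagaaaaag
Gm10163: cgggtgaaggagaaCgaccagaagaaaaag
Rpl26: gttcaggttgttcgCggacactacaaaggc
Gm15772: gttcaggttgttcgTggacactacaaaggc
Gm15500, at chr7:114705217-114706235 (minus strand, GRCm38), had 0 differences from Rpl5 over the 891 coding bases. Gm10163, at chr9:88390837-88391317 (plus), differed from Rpl21 by T336C and T432C, and Gm15772, at chr5:3236431-3236868 (plus), from Rpl26 by C177T and T288C, with positions counted from 1 at the first coding base. Reads that do not cover a differing base carry nothing in the coding sequence that could separate the gene from its copy.

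The 11 libraries with whole tables held 19209063 to 52074652 assigned reads. The table of Dexa replicate 3 ends after 47855 of 141862 transcripts and was used only for the members it lists whole. Of the 80 members, 77 passed the filter of at least 10 counts in at least 4 libraries, 46 of the large and 31 of the small subunit, among 17919 genes tested. The 3 that did not are paralogs of restricted use. Rpl10l, a testis form, was at 0 in every library, the muscle form Rpl3l reached at most 0.0543 CPM (counts scaled to a common library total by the trimmed mean of M values, TMM) and Rpl39l at most 0.0604. As a check of the labelled cell type, the summed OPC markers lay at 5389 to 12559 CPM in Ctr, while the 8 microglia markers summed to between 0.516 and 1.53 in any library. OPC marker sums were 6063 to 13837 in Dexa and 3780 to 8700 in IFNg, where 4 of the 7 genes were lower than in Ctr at an adjusted p under 0.05. The 7 neuron markers summed to 862 to 1405 in Ctr, nearly all of it from Map2 (847 to 1388), and the other 6 to 14.7 to 18.4. Astrocyte markers summed to 151 to 292 in Ctr, 240 to 347 in Dexa and 181 to 290 in IFNg, with Gfap at 0.124 to 1.21 in Ctr and 5.19 to 11.7 in IFNg. Of the 5 astrocyte markers tested, 2 were higher and 2 lower in IFNg than in Ctr at an adjusted p under 0.05. Myelinating oligodendrocyte markers summed to 217 to 839 in Ctr, 244 to 891 in Dexa and 153 to 386 in IFNg. In IFNg 1 of these 6 was lower than in Ctr and 3 were lower than in Dexa. Over all genes tested, 16.0% were higher and 15.3% lower in IFNg than in Ctr, and 16.6% were lower than in Dexa. The part of these cell types in the results below was not tested.

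**Figure D1:**
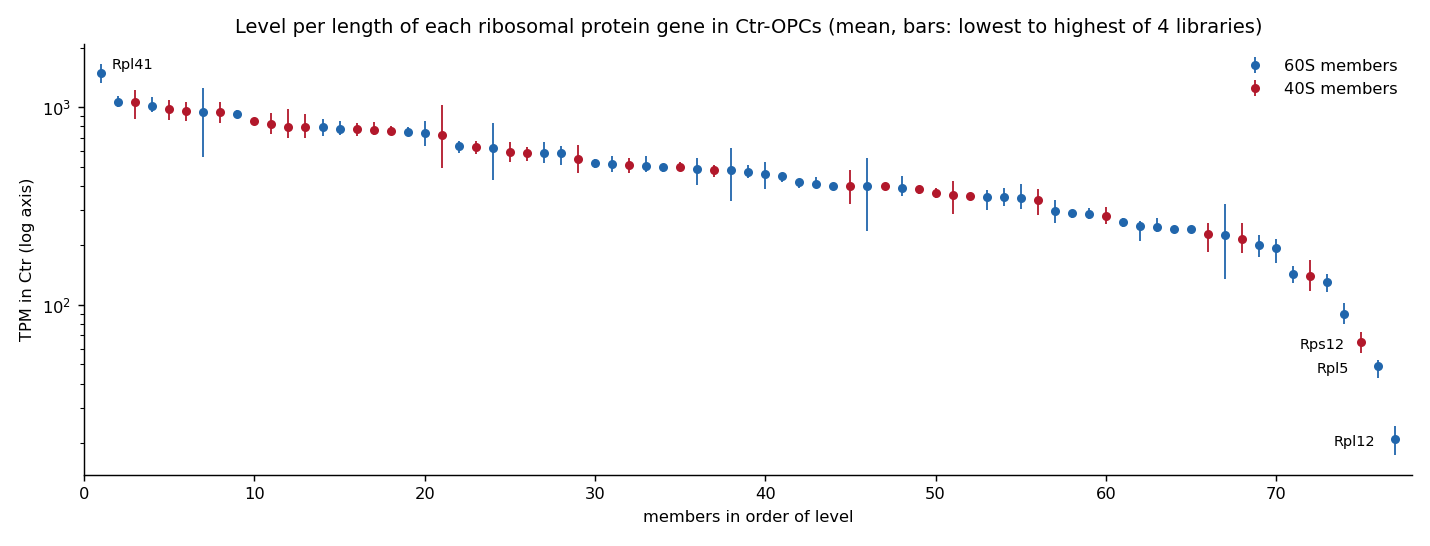
Mean level of each member that passed the filter in the 4 Ctr libraries, in TPM (transcript levels scaled to transcript length and library, log axis), ordered from highest to lowest, with bars from the lowest to the highest library and colours for the subunits. Levels run from 1486 TPM for Rpl41 to 20.9 TPM for Rpl12.

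In untreated cells the members were expressed far above a typical gene. Their median level was 471 TPM, 549 TPM for the small and 413 TPM for the large subunit, against 4.13 TPM over all genes tested, and all 77 lay above that last value. The highest was Rpl41, the shortest ribosomal protein, at 1486 ± 176 TPM (SD, n = 4), and others near the top were Rps29 at 1056 ± 181, Rpl13a, and Rps18 at 975 ± 126. The order within the list was loose: 69 of 76 neighbours had ranges over the 4 libraries that overlapped. The lowest 3 stood apart from it, with Rps12 at 65.2 ± 7.24, Rpl5 at 49.1 ± 4.40 and Rpl12 at 20.9 ± 3.85 TPM, a span of 71.0-fold from first to last.

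These 3 low values moved with the assignment of reads to copies. Summed over libraries, copies held 92.1% of the reads shared between Rpl12 and its copies, 91.1% for Rps12 and 86.6% for Rpl5. Rpl10, Rpl37, Rpl27 and Rps23 also had over 50% of these reads on copies, whereas 19 members had under 1%. Across all members and their copies together, copies took 17.6% to 20.3% of the reads in a library. The levels of the genes with many copy reads are therefore those of the assignment made when the reads were quantified, and a low TPM cannot be read as a low mRNA level.

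Transcripts annotated as protein-coding took 87.7% to 89.0% of the members' reads, and retained-intron transcripts 6.17% to 7.23%. Their part differed widely between genes. In the Ctr libraries they held 83.2% to 91.6% of the reads of Rps16, 64.7% to 75.3% of those of Rpl12, 49.0% to 65.2% of those of Rps26 and 46.8% to 52.7% of those of Rps20. Of all retained-intron reads of members in Ctr, Rpl13a held the most, at 11.9%, followed by Rps16 at 9.38%, and 7 genes held 50.1%. These shares are those of the assignment of reads among a gene's annotated transcripts when the reads were quantified. Whether introns were retained was not tested.

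**Figure D2:**
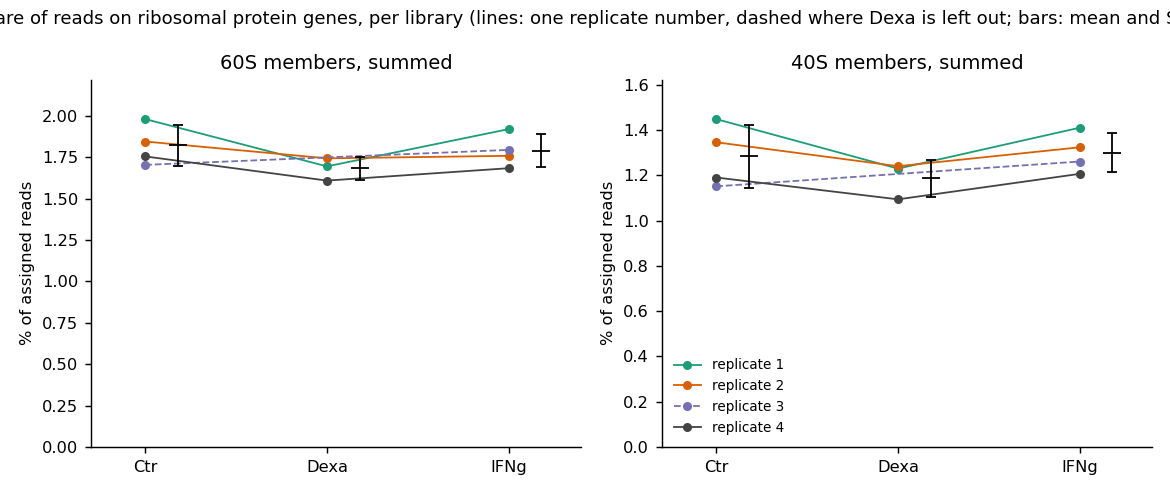
Percent of a library's assigned reads on the 60S members (left) and on the 40S members (right), with lines joining libraries of a replicate number, a dashed line where Dexa replicate 3 is left out, and black bars for mean and SD. In replicates 1, 2 and 4 the Dexa library lies below the Ctr library in both panels.

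The whole family took about the same part of the reads in Ctr and IFNg and a slightly smaller part in Dexa. The share of assigned reads was 3.43%, 3.19%, 2.85% and 2.94% in Ctr replicates 1 to 4, 2.92%, 2.98% and 2.70% in Dexa replicates 1, 2 and 4, and 3.33%, 3.08%, 3.05% and 2.89% in IFNg replicates 1 to 4. The groups overlapped, and the spread between replicates was as large as any difference between conditions. Within replicate numbers, Dexa was lower than Ctr in 3 of 3 pairs, with log2 ratios of -0.23, -0.10 and -0.12 and a mean of -0.15 ± 0.07 (SD). IFNg was higher than Ctr in 1 of 4 pairs, with a mean log2 ratio of -0.01 ± 0.07, and higher than Dexa in 3 of 3, with a mean of 0.11 ± 0.07. Exact permutation of signs over 3 pairs cannot give a two-sided p under 0.25, nor over 4 pairs under 0.125, so no test was made on these shares. In a bulk culture, fewer cells with many ribosomes and less ribosomal protein mRNA per cell cannot be told apart.

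Both subunits were lower in Dexa than in Ctr, and their balance shifted slightly with IFNg. For the large subunit the shares were 1.82% ± 0.121 in Ctr (n = 4), 1.68% ± 0.0681 in Dexa (n = 3) and 1.79% ± 0.0986 in IFNg (n = 4), and for the small subunit 1.28% ± 0.138, 1.19% ± 0.0816 and 1.30% ± 0.0876. The ratio of 60S to 40S reads lay between 1.33 and 1.48 in all 11 libraries. It was lower in IFNg than in Ctr in 4 of 4 pairs, with a mean log2 difference of -0.05 ± 0.03 (SD), and lower than in Dexa in 3 of 3, with a mean of -0.06 ± 0.04. On summed TPM it was lower in 3 of 4 and 2 of 3 pairs. Dexa was below Ctr in 3 of 3 pairs for either subunit, by a mean log2 ratio of -0.14 for 60S and -0.16 for 40S.

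The unit matters for IFNg. On summed TPM, the members rose from 3.91% ± 0.252 of the total in Ctr to 4.53% ± 0.438 in IFNg, higher in 4 of 4 pairs with a mean log2 ratio of 0.21, where the share of reads gave -0.01. TPM is shared out among all transcripts of a library, and 3 short noncoding RNAs, Rn7s1, Rn7s2 and Rn7sk (parts of the signal recognition particle and of the 7SK particle), held 60.7% to 65.6% of the TPM in Ctr and 52.2% to 63.0% in IFNg. Comparisons between conditions below use read counts with TMM scaling, with levels in CPM.

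**Figure D3:**
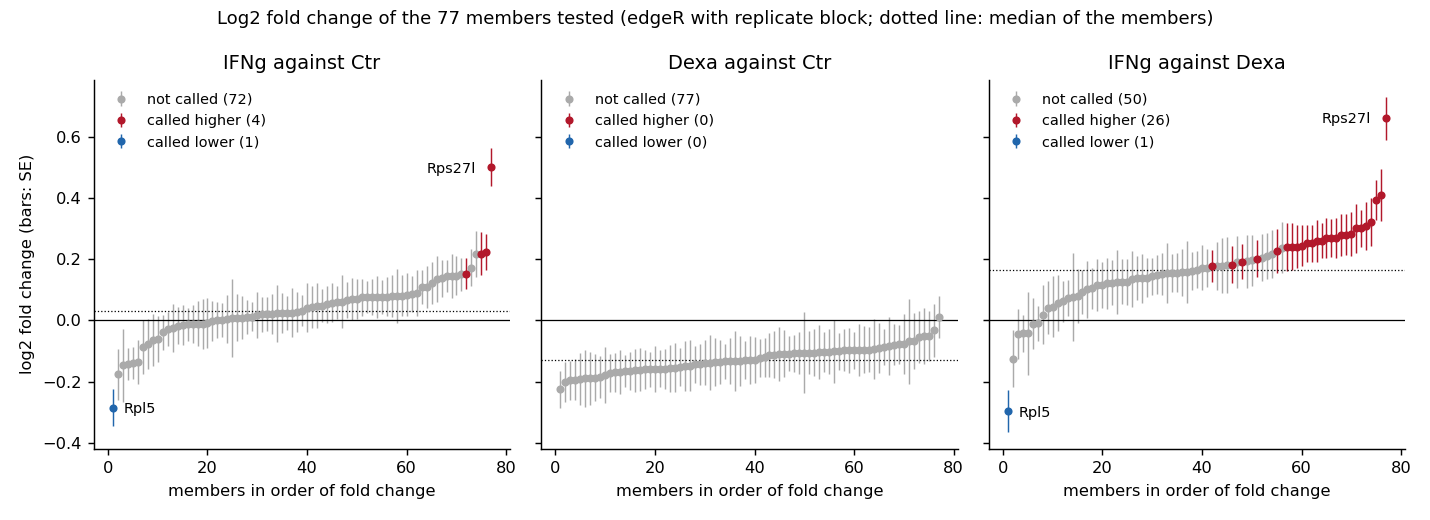
Log2 fold change of the 77 members tested in each comparison, ordered within each panel, with bars for the standard error and a dotted line at the members' median. In red are members called higher (4, 0 and 26 in the panels from left to right) and in blue those called lower (1, 0 and 1).

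With IFNg, few ribosomal protein genes changed, in a comparison where many other genes did. Against Ctr, 4 of 77 members (5.19%) were higher and 1 (1.30%) lower at an adjusted p under 0.05, in edgeR's quasi-likelihood test with the replicate number as a block. Over all genes tested the same test called 16.0% higher and 15.3% lower. The members' log2 fold changes ran from -0.28 to 0.50 with a median of 0.03, beside -0.01 over all genes tested, and this small positive median turned to -0.02 with upper-quartile and to -0.01 with total-read scaling. Under both those scalings 2 members were higher and 4 lower. Of all 17919 genes, 2405 were higher and 3654 lower with upper-quartile scaling, and 2449 and 3419 with total-read scaling. By the unadjusted p, 13 members (16.9%) lay under 0.05, against 41.7% of all genes tested. The median by pair was -0.01, 0.00, 0.17 and -0.02 for replicates 1 to 4, and the median of replicate 3 stood apart. Without the block edgeR called 0 members, with 4 at an unadjusted p under 0.05, and DESeq2 without the block called 0, with 5, while DESeq2 with the block called 4. Over all genes, edgeR without the block called 1086 of 17919 higher and 427 lower.

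Rps27l, a paralog of Rps27 known as a target of p53, had the largest rise. It stood at 88.3, 68.4, 56.8 and 58.6 CPM in Ctr replicates 1 to 4 and at 107, 105, 84.8 and 84.1 in IFNg, so IFNg was higher in 4 of 4 pairs although the ranges of the groups overlapped. The log2 fold change was 0.50 ± 0.06 (SE, edgeR adjusted p = 1.68e-04), or 1.41-fold, and no single library was needed for the call. In Dexa it lay at 74.7, 65.6 and 50.2, lower than Ctr in each pair, with a log2 fold change of -0.16 ± 0.07 (edgeR adjusted p = 0.433). It has no near-identical copy by the definition above.

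Rps20 and Rps19, proteins of the 40S head, were also called higher. Rps20 lay at 293, 257, 208 and 218 CPM in Ctr and at 314, 295, 275 and 249 in IFNg, a log2 difference of 0.22 ± 0.06 (edgeR adjusted p = 0.0138). Rps19, the gene most often mutated in Diamond-Blackfan anaemia, lay at 550, 477, 388 and 418 in Ctr and at 578, 521, 520 and 497 in IFNg, a difference of 0.22 ± 0.07 (edgeR adjusted p = 0.0370). Both were higher in 4 of 4 pairs. Ctr replicates 1 and 2 reached into the IFNg range for Rps20, and Ctr replicate 1 for Rps19. The call of Rps20 was lost without Ctr replicate 2, 3 or 4 or IFNg replicate 3, and that of Rps19 without any of these or without Dexa or IFNg replicate 4. Under upper-quartile and total-read scaling, Rps20 was still called, at 0.17 and 0.18, and Rps19 was not, at 0.16 and 0.17.

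Rpl24, a large-subunit protein that reaches across to the small subunit, gave the smallest change of those called. Its Ctr libraries lay at 207, 187, 192 and 190 CPM and its IFNg libraries at 228, 213, 214 and 208, which do not overlap. The log2 difference was 0.15 ± 0.05 (edgeR adjusted p = 0.0464), and the call was lost on leaving out any library other than Dexa replicate 1. It was also lost with the DESeq2-type (0.15), upper-quartile (0.10) and total-read (0.11) scalings. Counting the reads of its copies, among them Gm9385, which differs by C313T, gave 0.16 with an adjusted p of 0.0298 in edgeR.

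Rpl5, which with Rpl11 and 5S rRNA forms the particle that binds Mdm2, was the only member called lower. It lay at 103, 106, 113 and 118 CPM in Ctr and at 77.02, 97.4, 88.7 and 99.6 in IFNg, without overlap, a log2 difference of -0.28 ± 0.06 (edgeR adjusted p = 0.00518). Its copies, chiefly the identical Gm15500, held 685, 659, 734 and 717 CPM in Ctr and 680, 677, 740 and 665 in IFNg. With gene and copies summed, the log2 difference was -0.05 ± 0.06 (edgeR adjusted p = 0.550), and the sum was 789, 765, 847 and 835 CPM in Ctr and 757, 774, 828 and 764 in IFNg, lower in 3 of 4 pairs. Copies held most of these reads, so the sum can show only a small part of a change in Rpl5 alone. Its partner Rpl11 showed 0.08 ± 0.07 (edgeR adjusted p = 0.427).

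Once the reads of copies were added to every member, edgeR called 6 of 77 members higher and 0 lower, where 2883 of 17659 genes tested were higher and 2741 lower. Rpl10 and Rpl14 joined the 4 above. Rpl10, which joins the large subunit last, had a value of 0.22 ± 0.07 from its own reads alone (edgeR adjusted p = 0.0512).

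The stalk proteins Rplp0, Rplp1 and Rplp2, which recruit elongation factors, did not pass in any comparison. Their log2 fold changes with IFNg were -0.06 ± 0.07, 0.01 ± 0.13 and 0.02 ± 0.09. Of the 8 proteins of the peptide exit tunnel and the 5 of the mRNA channel and decoding site, 0 passed in IFNg against Ctr in edgeR, with medians of 0.05 and 0.06. By the unadjusted p, 1 and 0 of them lay under 0.05, and DESeq2 with the block also called 0 of both. Upper-quartile scaling brought these medians to 0.00 and 0.00. Rps6 (the classical substrate of the S6 kinases) and Rps24 did not pass against Ctr either.

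With dexamethasone no member passed the test alone, yet nearly all lay slightly lower. In edgeR 0 of 77 were called, beside 1.31% of all genes tested called higher and 0.262% lower, and DESeq2 with the block also called 0. The members' median log2 fold change was -0.13, beside -0.00 over all genes tested, and 76 of 77 were negative, which held as a median of -0.12 to -0.14 under the other scalings. By the unadjusted p, 21 members lay under 0.05, all lower, or 27.3% against 10.97% of all genes tested. That count rested on replicate 1, as it was 1 without Ctr replicate 1 and 1 without Dexa replicate 1. It was 6 without the block, and 38 without Ctr replicate 3 or without IFNg replicate 3. Lower values in every one of the 3 pairs were found for 55 members, or 71.4%, and for 22.8% of all genes tested. Members are expressed together, so they are not independent of each other and these counts carry no p. The medians by pair were -0.27, -0.05 and -0.12 for replicates 1, 2 and 4, and without Dexa replicate 1 the median over members was -0.07.

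The lowest was Rps27a, which encodes a ubiquitin fused to a 40S protein. Its Ctr libraries lay at 338, 288, 295 and 304 CPM and its Dexa libraries at 267, 259 and 270, which do not overlap. The log2 difference was -0.22 ± 0.06 (edgeR adjusted p = 0.136). Without the filter on low counts the same gene passed as the 1 member called. Groups were without overlap for 7 members, among them Rps27a, Rpl36a, Rps3, Rpl4, Rpl6 and Rpl15, all lower. That is 9.09% of members, where 4.29% of all genes tested had groups without overlap in either direction, 1.70% of all genes lay lower without overlap, and 1.57% were called. The least changed were Rplp0 at -0.05 ± 0.08, Rps28 at -0.03 ± 0.09 and Rpl5 at 0.01 ± 0.07.

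Dexa replicate 3 could be used for 25 members whose transcripts its partial table lists whole. Their share of the reads on the genes it lists whole was 2.26% ± 0.109 in Ctr, 2.08% ± 0.0156 in Dexa and 2.30% ± 0.114 in IFNg, with n = 4 each. The Dexa library was lower in 4 of 4 pairs, with log2 ratios of -0.21, -0.10, -0.05 and -0.10. Of these members 23 could be tested, and their median against Ctr was -0.13 with 11 libraries and -0.12 with 12, with 0 called in edgeR either way, while for IFNg against Dexa the members called higher went from 4 to 7 (17.4% to 30.4%), while the share of all these genes called in either direction went from 33.3% to 38.5%.

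Most calls among members were made between IFNg and Dexa. The 3 comparisons share libraries and are not independent. Against Dexa, 26 of 77 members (33.8%) were higher in IFNg, where 17.2% of all genes tested were, and 1 (1.30%) was lower, where 16.6% were. The median was 0.17, beside -0.02 over all genes, and 70 members were positive. The median stayed positive under each other scaling, and by subunit it was 0.09 for the large and 0.13 for the small subunit under upper-quartile scaling, the lowest of these. By subunit, 15 of 31 members of the small and 11 of 46 of the large subunit were higher, and the difference between these shares was not tested. Without the block edgeR called 3 of 77 higher (Rps27a, Rpl24 and Rps25), where 1015 of 17919 genes tested were higher. Without Dexa replicate 1 there were 5 calls in all, 4 of them higher, where 2295 of 17763 genes were higher. In both settings the share of members called higher was below that of all genes. Groups were without overlap for 25 members (32.5%), all higher in IFNg, where 20.0% of all genes tested had groups without overlap in either direction, 11.4% of all genes lay higher without overlap, and 33.7% were called.

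The members with the smallest p or a known regulatory role are given next. Rps27l was at 74.7, 65.6 and 50.2 CPM in Dexa and at 84.1 or more in IFNg, a log2 difference of 0.66 ± 0.07 (edgeR adjusted p = 5.96e-05). Rps20 was at 241, 238 and 189 in Dexa and at 249 or more in IFNg, a difference of 0.39 ± 0.06 (edgeR adjusted p = 0.00108). Rpl10 was at 73.5, 73.7 and 79.9 in Dexa and at 108, 94.7, 95.7 and 94.1 in IFNg, a difference of 0.41 ± 0.09 (edgeR adjusted p = 0.00434). These 3 genes did not overlap between the groups. Rps27a, at 321, 322, 311 and 337 in IFNg, was higher by 0.30 ± 0.06 (edgeR adjusted p = 0.00352), the X-linked Rps4x by 0.25 ± 0.06, Rps6 by 0.27 ± 0.06, Rpl24 by 0.26 ± 0.06 and Rpl3, which lies at the peptidyl transferase centre, by 0.28 ± 0.07. The calls of the last 4 and that of Rps19 were lost without Dexa replicate 1. Rps24 passed (0.18 ± 0.06) but was lost on leaving out any library other than Dexa replicate 2.

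Rpl5 was again called lower, by 0.30 on the log2 scale as counted alone (-0.30 ± 0.07, edgeR adjusted p = 0.00725), and the sign turned to 0.10 ± 0.06 (edgeR adjusted p = 0.281) with its copies. The call was also lost without Dexa replicate 4. With copies added to all members, 30 of 77 were higher and 0 lower, where 3086 of 17659 genes tested were higher and 2959 lower. Rps12, Rpl12, Rpl11 and Rpl21 passed in that count and not from their own reads.

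**Figure D4:**
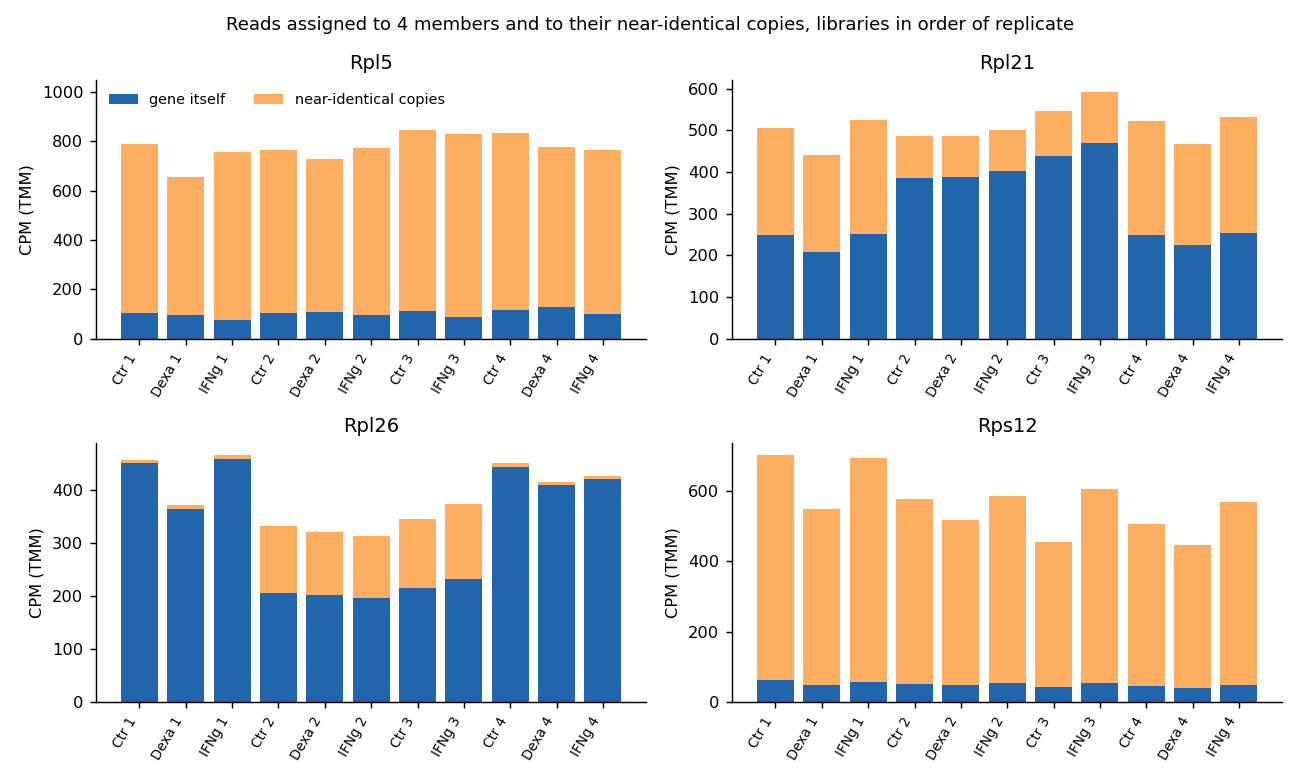
CPM (TMM) assigned to Rpl5, Rpl21, Rpl26 and Rps12 themselves (blue) and to their near-identical copies (orange, stacked on top), for the 11 whole libraries in order of replicate. Rpl21 and Rpl26 lie at separate levels in replicates 1 and 4 and in replicates 2 and 3, and most reads of Rpl5 and Rps12 lie on copies.

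Levels of members also differed between replicate numbers. The replicates of a condition came from different litters, and litter, cell isolation and library preparation cannot be told apart between these numbers. The range of the 4 replicate means exceeded the largest of the 3 differences between conditions for 48 of 77 members, with medians of 0.27 and 0.18 on the log2 scale, and a range over 4 replicates is by its make wider than one over 3 conditions. Members nevertheless varied less between Ctr libraries, with a median SD of log2 CPM of 0.145 against 0.273 over all genes tested. Their median level was 471 TPM against 4.13, and genes of matched level were not compared. Only 5 members that passed spanned more than 2-fold among the Ctr libraries: Rplp1, Rplp2, Rpl36, Rps2 and Rpl26. The genes named for differences between replicate numbers were chosen after their values were seen, other than the stalk proteins, and get no test.

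Rpl21 and Rpl26 switched between the same pairs of replicate numbers in opposite directions. Rpl21 lay at 209 to 254 CPM in the 6 libraries of replicates 1 and 4 and at 385 to 470 in the 5 of replicates 2 and 3, whatever the treatment. Its copies lay at 231 to 279 in replicates 1 and 4 and at 97.6 to 122 in replicates 2 and 3, so the sum was between 440 and 592 in all. Rpl26 lay at 366 to 459 in replicates 1 and 4 and at 197 to 233 in replicates 2 and 3. Its copies were at 5.18 to 6.77 in replicates 1 and 4 and at 117 to 142 in replicates 2 and 3.

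Gm10163 and Gm15772, which differ from the genes by the bases shown above, held many of these copy reads. Gm15772 took 96.7% to 97.0% of the copy reads of Rpl26 in replicates 2 and 3 and 25.4% to 37.2% in replicates 1 and 4. Gm10163 took 64.6% to 87.3% of those of Rpl21 in replicates 1 and 4 and 42.8% to 54.9% in replicates 2 and 3, where another copy, Rpl21-ps15, took 30.2% to 41.0%. For Rpl21 the range over the 11 libraries narrowed from 2.25-fold alone to 1.35-fold with copies, and for Rpl26 from 2.33-fold to 1.48-fold. Whether the replicates differed in the sequence of these genes was not tested, since the tables hold no bases.

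**Figure D5:**
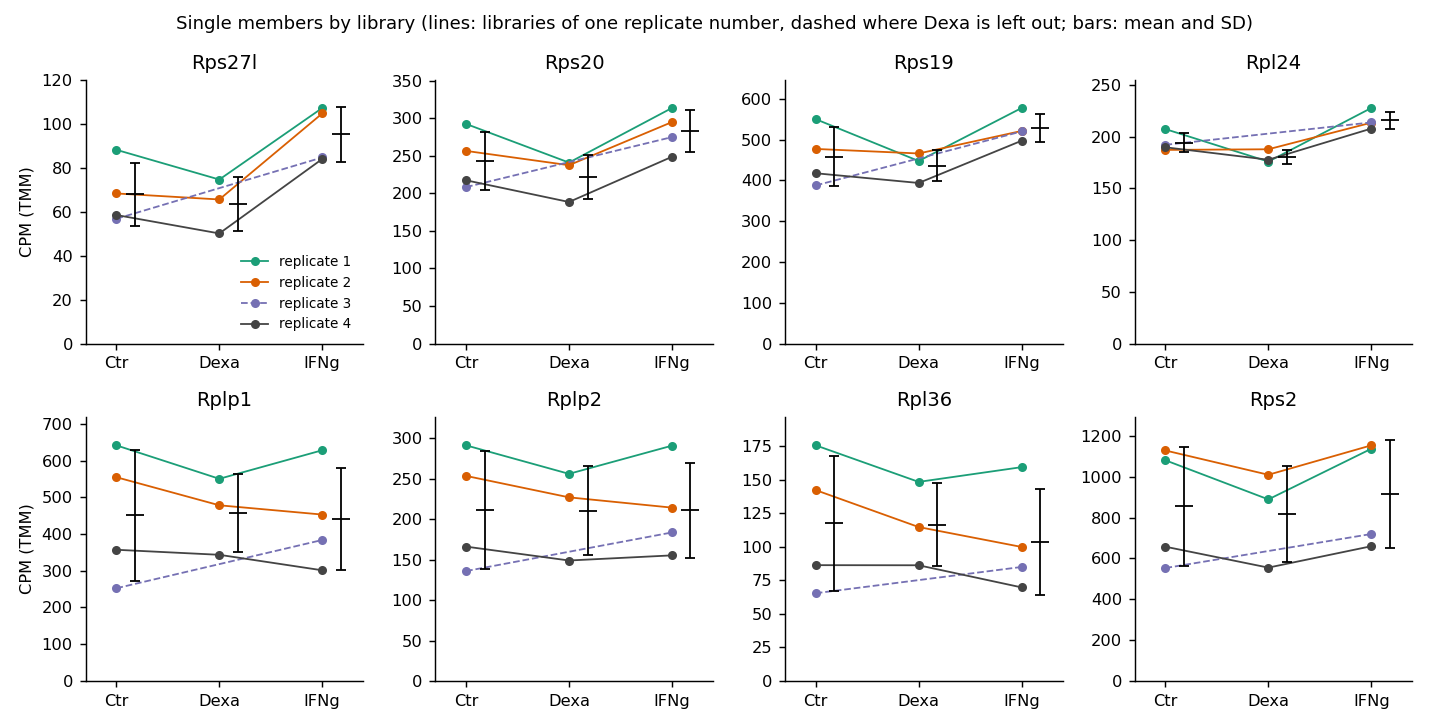
CPM (TMM) of 8 members by condition, with lines joining the libraries of a replicate number, a dashed line where Dexa replicate 3 is left out, and black bars for mean and SD. The 4 genes in the top row are those called higher with IFNg, and the 4 in the bottom row separate replicates 1 and 2 from 3 and 4.

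A second pattern between replicate numbers involved Rpl36, Rplp1, Rps2 and Rplp2. Rplp1 was at 642 and 555 CPM in Ctr replicates 1 and 2 and at 252 and 357 in replicates 3 and 4, Rpl36 at 176 and 142 against 65.4 and 86.4, Rplp2 at 291 and 254 against 136 and 166, and Rps2 at 1081 and 1129 against 553 and 658. Averaged over conditions, replicates 1 and 2 exceeded 3 and 4 by 0.83 for Rpl36, 0.76 for Rplp1, 0.76 for Rps2 and 0.69 for Rplp2 on the log2 scale. Copies held 3.87% to 4.01% of the reads of Rps2 and its copies in replicate 2 and 23.3% to 35.8% in the other replicates. With copies Rps2 was at 1414, 1175, 862 and 916 CPM in Ctr replicates 1 to 4, and its difference between replicates 1 and 2 and replicates 3 and 4 was 0.43 in place of 0.76. For Rpl36, Rplp1 and Rplp2 the differences with copies were 0.80, 0.76 and 0.68. Replicates 3 and 4 share the leading part of their sample titles, which the labels do not explain.

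The same contrast between replicate numbers followed base composition among members. Across the 77 tested genes, the GC content of the coding sequence and the difference between replicates 1 and 2 and replicates 3 and 4 had a Pearson r of 0.57 and a Spearman rho of 0.58. The genes share the same libraries, so this is a description with no p. The 6 members with the largest difference had 54.6% to 61.6% GC, with Rpl36 highest of all 77, beside a median of 52.9%. The part of base composition in this pattern between replicate numbers was not tested.

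Some genes for ribosomal proteins, or for proteins related to them, have symbols that fall outside the rule. All 7, among them Rps3a1, Fau, Rack1, Rpl36al, Rpl22l1 and Rpl7l1, passed the filter. Against Ctr, 2 (28.6%, against 16.0% of all genes tested) were higher with IFNg in edgeR: Rpl22l1, a paralog of Rpl22, by 0.42 ± 0.08 (adjusted p = 0.00238) and Rpl36al by 0.16 ± 0.05 (adjusted p = 0.0396). Rpl22l1 went from 55.2, 45.7, 34.6 and 37.6 CPM in Ctr to 59.0, 65.4, 50.6 and 53.8 in IFNg, higher in 4 of 4 pairs. With Dexa 0 passed in edgeR or in DESeq2 with the block, and all 7 were negative, with a median of -0.15. In edgeR 3 of 7 had an unadjusted p under 0.05, as did 10.97% of all genes tested.

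Genes outside the family whose mRNAs carry a 5′ TOP tract include elongation factors and nascent-chain proteins. Of 17 such genes, 2 (11.8%, against 16.0% of all genes tested) were higher with IFNg against Ctr: Vim, an intermediate filament gene, by 1.13 ± 0.12 and Btf3, a subunit of the nascent-chain complex, by 0.14 ± 0.05. With Dexa 0 of 17 passed in edgeR or DESeq2, and all 17 were negative, with a median of -0.11. In edgeR 4 of 17 had an unadjusted p under 0.05, as did 10.97% of all genes tested. The lowest p was that of Npm1, a nucleolar chaperone, at -0.23 ± 0.06 (edgeR adjusted p = 0.156). In IFNg against Dexa 9 of 17 were higher (52.9%, against 17.2% of all genes tested), among them Npm1 by 0.39 ± 0.07. The elongation factors Eef1a1 and Eef2 passed in none of the 3 comparisons. Among 8 noncoding hosts of small nucleolar RNAs, 2 (25%, against 15.3% of all genes tested) were lower with IFNg than in Ctr. These were Epb41l4aos by 0.54 and Snhg8 by 0.44 on the log2 scale.

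Few genes for rRNA transcription and ribosome assembly were called with IFNg. Of 30, 2 were higher and 2 lower, or 6.67% each, where 16.0% of all genes tested were higher and 15.3% lower. The higher ones were Nmd3, the export adaptor of the 60S subunit, by 0.21 ± 0.07 and Utp20 by 0.20 ± 0.06. The lower ones were the assembly factor Rrs1 (-0.52 ± 0.10) and Ubtf, the factor for rRNA gene transcription (-0.18 ± 0.05). Myc gave -0.15 ± 0.09 (edgeR adjusted p = 0.205). With Dexa 0 passed in edgeR or DESeq2, 29 were negative and the median was -0.11. In edgeR 4 of 30 had an unadjusted p under 0.05, as did 10.97% of all genes tested. Of 78 mitochondrial ribosomal protein genes, 11 were higher (14.1%, against 16.0% of all genes tested) and 2 lower (2.56%, against 15.3%) with IFNg, led by Mrps6 at 0.96 ± 0.07. With Dexa 0 of these 78 passed in edgeR or DESeq2, with a median of -0.07. In edgeR 8 of 78 had an unadjusted p under 0.05, near the 10.97% of all genes tested. With Dexa the medians of these lists were negative under each scaling tried. With IFNg against Ctr the medians of the assembly and mitochondrial lists were 0.04 and 0.01, and turned to -0.02 and -0.04 with upper-quartile scaling.

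Regulators of ribosomal protein synthesis were examined as a last list. Of 23 genes of mTORC1 and translation control, 6 were higher (26.1%, against 16.0% of all genes tested) and 2 lower (8.70%, against 15.3%) with IFNg against Ctr. Eif2ak2, the interferon-inducible kinase PKR that halts initiation, rose by 3.41 ± 0.21 (edgeR adjusted p = 9.12e-07), and Sesn2, an inhibitor of mTORC1, by 0.75 ± 0.08. Eif4ebp1, which represses cap-dependent translation, rose by 0.48 ± 0.10, and Larp1, which binds the 5′ TOP tract, by 0.34 ± 0.07 (edgeR adjusted p = 0.00303). Eef2k and the mTORC1 scaffold Rptor (0.27 ± 0.07) were also higher, and Sesn1 (-0.27 ± 0.06) and Tsc2 (-0.20 ± 0.06) lower. With Dexa 0 of 23 passed in edgeR or DESeq2, with 1 at an unadjusted p under 0.05 in edgeR, where 10.97% of all genes tested were. Deptor, an inhibitor of mTOR, gave 0.66 ± 0.26 (edgeR adjusted p = 0.359) and was lower in IFNg than in Dexa by 1.13 on the log2 scale. Its level was low, at 0.62 to 1.08 CPM in Ctr, 1.10 to 1.48 in Dexa and 0.49 to 0.69 in IFNg. These are mRNA values, and neither translation nor mTORC1 activity was measured.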

How the data were processed

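Transcript tables from Salmon 0.8.2 were deposited by the authors for 12 libraries, with estimated counts, TPM and effective lengths per transcript, which have GENCODE M21 (Ensembl 96) identifiers on GRCm38. Submitters' notes also list STAR and DESeq2. Estimated counts were summed per gene and rounded. The members and gene lists were chosen with earlier results of these data known. Genes reaching 10 counts in 4 or more of the 11 whole libraries were fitted in edgeR 4.0.16 (quasi-likelihood, TMM, replicate number as a block, Benjamini-Hochberg over 17919 genes, called under 0.05), in R 4.3.3, with DESeq2 1.42.0 as an alternative. The replicate numbers were taken as pairing the libraries. Deviations from group means correlated at 0.414 to 0.745 between libraries of the same number. Between libraries of different numbers they correlated at -0.646 to 0.526, so these ranges overlap. The replicates of a condition came from different litters, and the paper does not say whether libraries of the same number share one. On simulated counts for IFNg against Ctr, with 200 of 17919 genes changed, 144 were recovered (61% at 1.5-fold and 83% at 2-fold) with 12 false calls. Copies were found with blastn 2.17.0+, and tables were joined in Python 3.11.15. TPM served for levels per length only, and Ctr replicate 1, Dexa replicate 3 and Dexa replicate 4 were written with fixed decimals. The named members were, per comparison, up to 8 called in each direction with the smallest p, the 5 highest and 3 lowest by TPM, those that failed the filter, and Rplp0, Rplp1, Rplp2, Rpl5, Rpl11, Rps6, Rps24 and Rps27l. For the other lists they were the called genes that changed most. Members named outside this rule were chosen after their values were seen. The other alternatives concerned scaling, filter, effective length, transcript types, copies and single libraries. Counting the reads of copies and leaving out tables with fixed decimals were chosen after seeing the data. Protein sequences were not used here. A few genes that the rule would name are not reported here.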

Additional observations from a re-analysis of the deposited data

Results flagged for a closer look

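Of the 50 groups of 4 libraries examined for a library far from the others, Rpl10 in IFNg was picked out, and chance alone picks about 1 group in 20. IFNg replicate 1 held 107.5 CPM, where the other 3 lay between 94.1 and 95.7, so its gap to the nearest took 0.88 of the whole range. Without IFNg replicate 1 or any other single library, Rpl10 was still called higher in IFNg than in Dexa (log2 difference 0.29 to 0.48).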

How the results depend on the processing

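Fits without the replicate block, in which pairing by replicate number is ignored, called 0 members for IFNg against Ctr (edgeR, DESeq2 and edgeR with copies) and 3, 12 and 5 for IFNg against Dexa. Over all genes, edgeR without the block called 1513 of 17919 for IFNg against Ctr and 1571 for IFNg against Dexa. For IFNg against Ctr, protein-coding transcripts only gave 9, and leaving out 1 library gave 2 to 8 (8 without replicate 1 of Ctr, Dexa or IFNg, 3 without Ctr or IFNg replicate 3 or IFNg replicate 4, and 2 without Ctr replicate 2 or 4). For Dexa against Ctr, no filter gave 1, and leaving out 1 library gave 0 to 0. For IFNg against Dexa, leaving out the tables with fixed decimals gave 8, and leaving out 1 library gave 5 (Dexa replicate 1) to 30, with 14 without Dexa replicate 4. The median for IFNg against Ctr turned to -0.0222 (upper-quartile scaling) and -0.0124 (total-read scaling), and ran from -0.0276 (without Ctr replicate 3; without IFNg replicate 3, -0.0238) to 0.0641 with 1 library left out. It ran from -0.1768 to -0.0672 for Dexa against Ctr and from 0.0879 to 0.2204 for IFNg against Dexa.

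The mean log2 ratio of shares, IFNg against Ctr, was near 0 for all members, and its sign turned with -ps pseudogenes (0.004), copies (0.0024), summed TPM (0.2098) and on leaving out either library of replicate 1 (0.0069), 2 (0.0095) or 4 (0.0019), with a range of -0.0398 to 0.0095. Summed TPM also gave 0.1953 for 60S and 0.2272 for 40S, and for IFNg against Dexa 0.3688 for all, 0.3507 for 60S and 0.3905 for 40S. Leaving Rn7s1, Rn7s2, Rn7sk and mitochondrial genes out of the total gave -0.0217 (40S, IFNg against Ctr) and 0.0857 (40S, IFNg against Dexa). Without Ctr or IFNg replicate 3, the 40S value against Ctr was -0.0143, and its range reached 0.0422. Rpl5, IFNg against Dexa, turned to 0.0953 with copies and 0.1185 with copies and no block. The cause was not tested. At 1.5-fold the simulated test recovered 61% of changes in IFNg against Ctr. The simulation changed 200 of 17919 genes, where the real comparison called 31.3%, so this rate does not measure the power for the members. Small member changes may still have been missed.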
